A study of Arabidopsis thaliana with 9 samples.

Results

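UPB1 (UPBEAT1, AT2G47270) and the class III peroxidases of Arabidopsis thaliana were followed across 3 genotypes of somatic embryo culture. Members were taken by locus code: UPB1 and 59 peroxidase loci, 60 genes in all. Of these, 46 had an Affymetrix probe set annotated to that gene alone, namely UPB1 and 45 peroxidases with 1 probe set each, against 13355 such genes on the whole array. Another 5 loci lay only on 3 probe sets shared between genes, and 9 had no probe set in the annotation used and were not analysed here. The 9 include PRXCA, PRXCB, PER4, PA2, PER64 and the root hair genes RHS18 and RHS19.

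Class III peroxidases are secreted haem enzymes of plants. With hydrogen peroxide they oxidise phenolics and so cross-link lignin, suberin and wall proteins, and in another cycle they form reactive oxygen species that loosen the wall. UPB1 is a basic helix-loop-helix type transcription factor described in the root tip, where it represses a set of peroxidase genes and so shifts the balance between superoxide and hydrogen peroxide at the passage from division to differentiation. AGL15 and its relative AGL18 are MADS-domain transcription factors, and AGL15 is known to promote somatic embryogenesis. The question asked of these data was which peroxidases rose or fell with genotype, and whether they ran against UPB1.

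Columbia wild type was set beside 2 altered genotypes labelled with the same ecotype. One was 35S:AGL15, in which the constitutive cauliflower mosaic virus promoter drives AGL15, and the other the insertional loss-of-function double mutant agl15-4 agl18-1. Per the series' description, apical somatic embryos are more frequent in 35S:AGL15 and rarer in the double mutant than in wild type. All 3 were germinated and shaken in liquid MS medium that held 2% sucrose, 10 mM MES and 4.5 µM 2,4-D, a synthetic auxin, with 23 h light and 1 h dark, and were harvested 10 days after culture began. Each genotype had 3 arrays, labelled as biological replicates, hybridised with cRNA made from 4 µg of total RNA. How many transgenic lines were used, and what was pooled per replicate, is not given in the sources used here. Since whole cultures were extracted, fewer cells of a type and less RNA per cell cannot be told apart.

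Values are deposited linear intensities in arbitrary units. They are listed below in replicate order, with means ± SD (n = 3), and compare a gene between arrays but not one gene with another. A probe set was taken as above background on an array where it exceeded the brightest of 27 Bacillus control probe sets there, at 13.7 to 40.5 units. On this measure 69.2 to 84.5% of probe sets were above background. Of the 45 peroxidases, 26 were above background on all 9 arrays, 16 on 1 to 8 and 3 on none. A change was called where limma's adjusted p (Benjamini-Hochberg over 22746 probe sets) was under 0.05. The hybridisation spike-ins were brighter on all double mutant arrays and on 35S:AGL15 replicate 3 (852 to 1374) than on the other 5 arrays (563 to 718), so spike-in brightness and the double mutant genotype cannot be told apart by leaving out arrays. The targeted gene AGL18 read 171, 177 and 189 in wild type and 113, 68.5 and 62.6 in the double mutant (2.27-fold lower, limma adjusted p = 0.0266). It also read only 55.8, 52.4 and 90.8 in 35S:AGL15 (2.78-fold lower, limma adjusted p = 0.0353). AGL15 was not analysed here.

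UPB1 rose in 35S:AGL15 against wild type. It read 299.8, 218 and 636 in wild type, 2227, 921 and 1708 in 35S:AGL15, and 572, 574 and 556 in the double mutant. Every 35S:AGL15 array lay above the other 6, while wild type replicate 3 lay above all double mutant arrays. Between 35S:AGL15 (1619 ± 657) and wild type (384 ± 221) the rise was 4.39-fold, a log2 change of 2.13 (SE 0.44, limma adjusted p = 0.04). This call was held by 7 of 17 alternatives (other scalings, filters and terms, and single arrays left out). It ended when any of wild type replicates 1 and 2, 35S:AGL15 replicates 1 and 3 or the 3 double mutant replicates was left out (log2 change 1.80 to 2.13, limma adjusted p 0.0617 to 0.142). In every count for this comparison, a term for the arrays with brighter spike-ins and leaving out 35S:AGL15 replicate 3 give the same fit. They are therefore not separate alternatives. The double mutant differed from wild type by 0.71 on the log2 scale (95% interval -0.30 to 1.72, limma adjusted p = 0.294), and scaling by the spike-ins turned this to -0.02. From the double mutant to 35S:AGL15 the difference was 1.42 (95% interval 0.41 to 2.43, limma adjusted p = 0.0638).

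A set of 3 peroxidases is known from roots as direct targets that UPB1 represses. None was called in the reported fit of any of the 3 comparisons, though AT5G17820 and AT4G11290 passed under some alternatives. AT5G17820 was well above background, at 2673, 3478 and 1685 in wild type, 4201, 2916 and 5571 in 35S:AGL15, and 1946, 2416 and 1794 in the double mutant. Its log2 difference between 35S:AGL15 and wild type was 0.71 (95% interval -0.05 to 1.47, limma adjusted p = 0.315), so its point estimate had the same sign as that of UPB1. All its 35S:AGL15 arrays lay above the double mutant arrays, at a log2 difference of 1.01 (95% interval 0.25 to 1.77, limma adjusted p = 0.0762). That difference was called by 5 of 17 alternatives, among them spike-in scaling (1.55), but not with median centring (0.73). AT4G11290 was dim but above background on all arrays, at 54.4, 69.6 and 27.2 in wild type, 41.1, 70.1 and 50.9 in 35S:AGL15, and 86.6, 70.8 and 95.4 in the double mutant. Its wild type and 35S:AGL15 arrays overlapped, with a log2 difference of 0.17 (95% interval -0.67 to 1.01, limma adjusted p = 0.834) that became -0.22 without wild type replicate 3. The double mutant arrays of AT4G11290 lay above all others, at a log2 difference of 0.83 from wild type (limma adjusted p = 0.147). This difference was called by 2 of 16 alternatives, quantile normalization (1.28, limma adjusted p = 0.0267) and median centring (1.35, limma adjusted p = 0.0237). With spike-in scaling it was 0.10 (limma adjusted p = 0.892). AT4G16270, known as an extensin peroxidase of the tapetum, was above background on 1 wild type, 0 35S:AGL15 and 1 double mutant arrays, and its log2 difference in 35S:AGL15 of -1.08 (95% interval -2.48 to 0.33, limma adjusted p = 0.402) turned to 0.05 once values were raised to the background level.

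**Figure D1:**
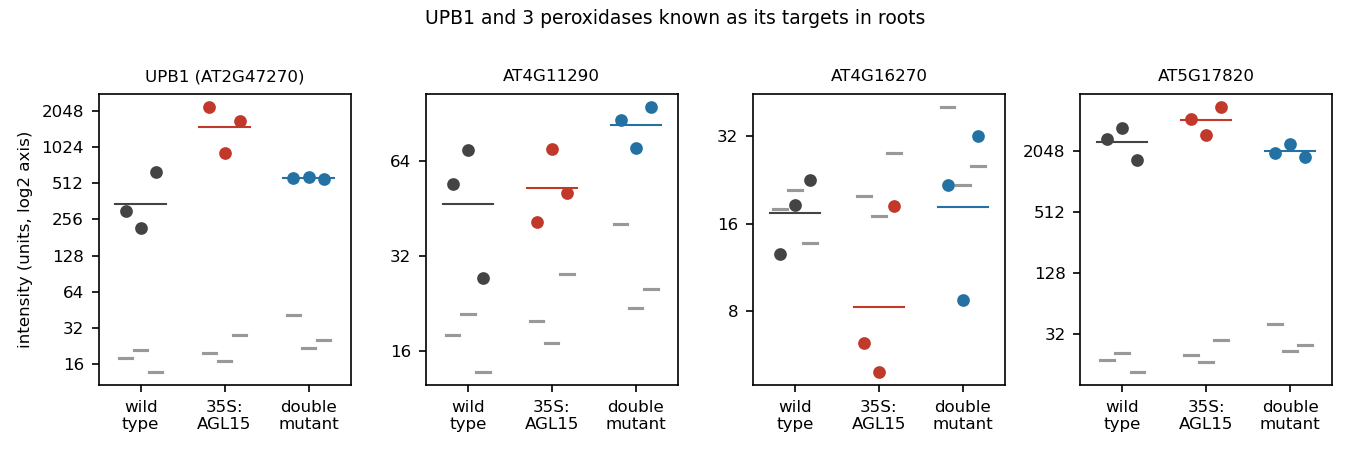
Intensity of UPB1 and of 3 peroxidases known as its root targets, on log2 axes. Dots are single arrays, coloured lines geometric means of 3 arrays, and grey ticks the background level of each array. UPB1 is highest on the 35S:AGL15 arrays (921 to 2227), whereas AT4G11290 and AT5G17820 overlap between 35S:AGL15 and wild type and AT4G16270 sits around background.

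In 35S:AGL15 against wild type, 6 of 45 peroxidases (13.3%) were called, 1 higher and 5 lower, where 3.68% of all probe sets were called (1.38% higher and 2.31% lower). Quantile normalization gave 1 higher and 6 lower, median centring 1 and 4, and spike-in scaling 0 and 3. AT4G36430 read 1245, 1601 and 962 in wild type, 255, 278 and 371 in 35S:AGL15, and 989.9, 1243 and 1392 in the double mutant. All 35S:AGL15 arrays lay below the other 6, a 4.18-fold fall against wild type (log2 change -2.06, SE 0.25, limma adjusted p = 0.00905) that was called under all 17 alternatives. AT4G33420, known for lignification of xylem vessels, was also lowest in 35S:AGL15. It read 575, 735 and 491 in wild type, 173, 235 and 248 in 35S:AGL15, and 602, 943 and 879.9 in the double mutant. The fall against wild type was 2.74-fold (log2 change -1.46, SE 0.26, limma adjusted p = 0.0238). It was no longer called without wild type replicate 1 or 2 or 35S:AGL15 replicate 1 (log2 change -1.48 to -1.29), nor with spike-in scaling.

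PRX72 (AT5G66390), known for lignification, fell to near background in 35S:AGL15. It read 153, 124 and 108 in wild type, 19, 15 and 29.7 in 35S:AGL15, where 1 of 3 arrays was above background, and 72, 72.2 and 84.6 in the double mutant. The groups did not overlap, and the order was wild type, double mutant, 35S:AGL15 (log2 change -2.64 against wild type, SE 0.27, limma adjusted p = 0.00487). AT1G44970, known as an extensin peroxidase of the tapetum, had the same order, at 175, 124 and 149 in wild type, 19.2, 12.7 and 32.3 in 35S:AGL15, where again 1 of 3 arrays was above background, and 60, 82.3 and 74.2 in the double mutant. Its log2 change was -2.89 (SE 0.34, limma adjusted p = 0.00716). Because most 35S:AGL15 arrays were at background, no fold is given for either and the sizes of these log2 changes are uncertain: with an offset of 32 they were -1.59 for PRX72 and -1.77 for AT1G44970. Both calls stood under all 16 alternatives that tested these probe sets. In the double mutant the log2 differences from wild type were -0.74 for PRX72 (limma adjusted p = 0.0945) and -1.04 for AT1G44970 (limma adjusted p = 0.065).

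AT2G18980, one of the brightest probe sets among the members, fell by a smaller factor. It read 4863, 5585 and 4437 in wild type, 2354, 2505 and 2643 in 35S:AGL15, and 4636, 6669 and 5672 in the double mutant. The 35S:AGL15 arrays formed a tight group below the rest, 1.98-fold under wild type (log2 change -0.98, SE 0.19, limma adjusted p = 0.0318). This call was held by 7 of 17 alternatives and ended without any 1 wild type replicate, 35S:AGL15 replicate 1 or 3, or double mutant replicate 3 (log2 change -1.06 to -0.89), and with median centring, spike-in scaling or a term for the arrays with brighter spike-ins (array batch term).

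The only peroxidase called higher in 35S:AGL15 than in wild type was AT4G26010, a root hair peroxidase. It read 47.4, 49.2 and 13.9 in wild type, 151, 197 and 228 in 35S:AGL15, and 59.8, 90 and 65.2 in the double mutant. The 3 genotypes did not overlap, and wild type replicate 3 was just above its background level of 13.7. The rise was 5.93-fold (log2 change 2.57, SE 0.48, limma adjusted p = 0.0283), and the log2 change was 1.97 without wild type replicate 3 and 1.73 with an offset of 32. It was called by 8 of 16 alternatives and ended without wild type replicate 1 or 2, 35S:AGL15 replicate 1 or 3, or double mutant replicate 3 (log2 change 2.43 to 2.88), and with spike-in scaling or the array batch term. The other 2 measured root hair peroxidases did not pass: AT3G49960 read 132, 34.8 and 28.1 in wild type against 156, 266 and 187 in 35S:AGL15 (log2 difference 1.97, limma adjusted p = 0.142), and AT1G30870 overlapped between genotypes (log2 difference 0.57, limma adjusted p = 0.525). The root hair markers EXPA7 and EXPA18, expansins, were not called either. Their summed intensity per array was 151 to 246 for wild type, 248 to 341 for 35S:AGL15 and 224 to 304 for the double mutant, and its part in the AT4G26010 result was not tested.

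**Figure D2:**
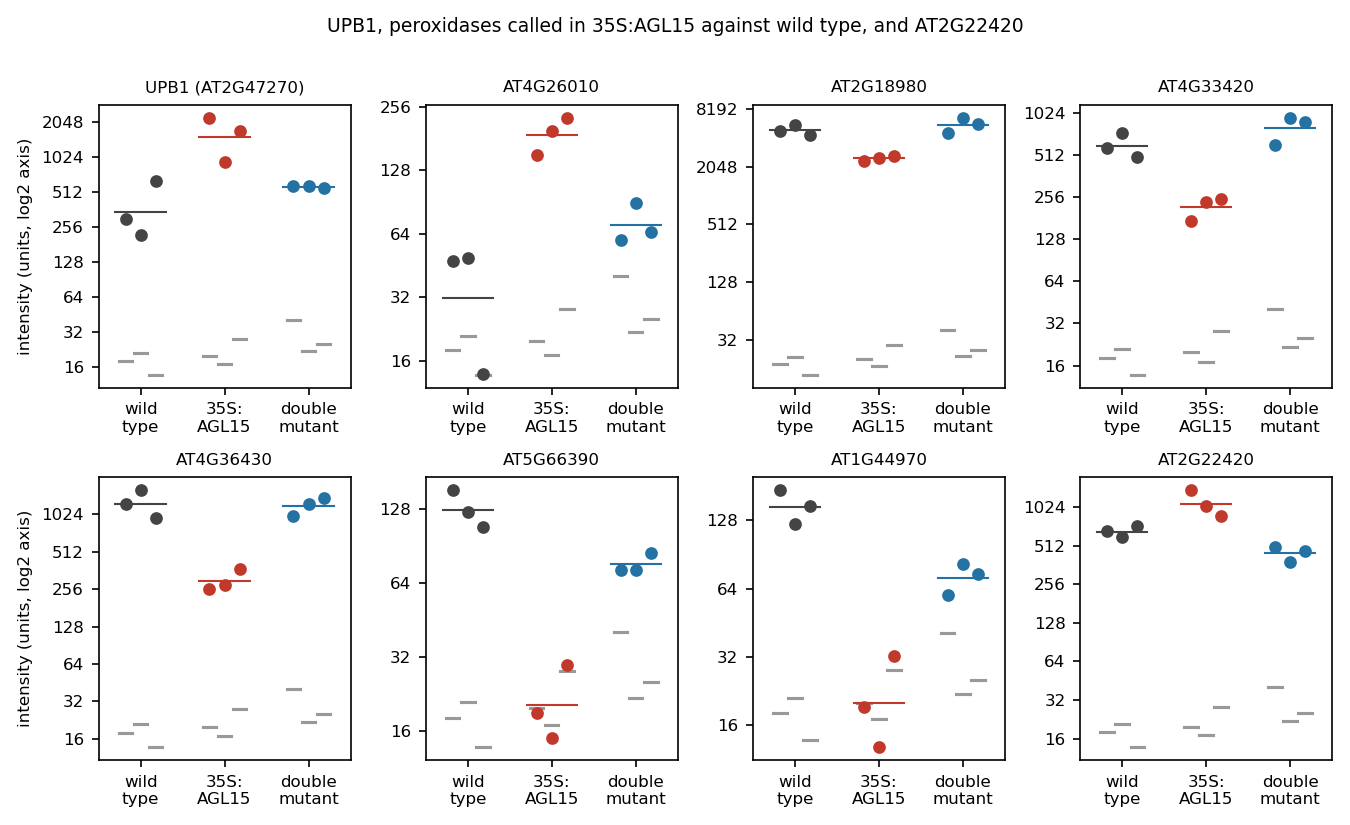
Intensity of UPB1, the 6 peroxidases called between 35S:AGL15 and wild type, and PRX17 (AT2G22420), which was not called there, on log2 axes. Dots are single arrays, coloured lines geometric means of 3 arrays, and grey ticks each array's background level. Of the 6 called peroxidases, AT4G26010 is highest in 35S:AGL15 (151 to 228) and the other 5 are lowest there. AT1G44970 and PRX72 (AT5G66390) reach background on 2 of 3 35S:AGL15 arrays.

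Several peroxidases separated by array without passing the test. PRX71 (AT5G64120), known for restricting growth through the cell wall, read 4177, 3495 and 3725 in wild type, 1049, 1407 and 1270.5 in 35S:AGL15, and 1442, 4277 and 3113 in the double mutant. Its 35S:AGL15 arrays lay below all others (3.07-fold under wild type, log2 difference -1.62, 95% interval -2.47 to -0.77, limma adjusted p = 0.0571). Among the members as a whole, 17 of 45 (37.8%) had no overlap between 35S:AGL15 and wild type, where 23.0% of all probe sets had none. Of the other brightest members, AT5G64100 read 7029, 9119.8 and 6077 in wild type and 5790.4, 6562 and 12131 in 35S:AGL15, and 5755, 7911 and 5770.1 in the double mutant. Prx37 (AT4G08770) read 3155, 3157 and 3787 in wild type, 3247, 2725 and 3731 in 35S:AGL15, and 3781, 3243 and 3066 in the double mutant. Both overlapped across all 3 genotypes. For Prx37 the log2 difference of 35S:AGL15 from wild type was -0.06 (95% interval -0.49 to 0.37), and for AT5G64100 it was 0.08 (95% interval -0.64 to 0.80).

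In the double mutant against wild type, 7 of 45 peroxidases (15.6%) were called, 1 higher and 6 lower, where 18.9% of all probe sets were called (3.90% higher, the others lower). The members' share was near that of the array. With quantile normalization 5 peroxidases were called higher and 4 lower, with median centring 8 and 2, and with spike-in scaling 0 and 11. AT1G71695 read 676, 523 and 647 in wild type, 344, 555 and 369 in 35S:AGL15, and 219.5, 200.1 and 135 in the double mutant. The double mutant arrays lay below the other 6, a 3.38-fold fall (log2 change -1.76, SE 0.27, limma adjusted p = 0.00537). AT5G14130 read 1659, 1632 and 1937 in wild type, 834, 460.3 and 842 in 35S:AGL15, and 372, 691 and 561 in the double mutant. Here both altered genotypes lay below wild type, with a called 3.31-fold fall in the double mutant (log2 change -1.73, SE 0.31, limma adjusted p = 0.00918) and a log2 difference of -1.34 in 35S:AGL15 that did not pass (limma adjusted p = 0.0597). These 2 calls were held by 16 of 17 alternatives, all but the array batch term. With spike-in scaling the log2 changes were -2.49 for AT1G71695 and -2.46 for AT5G14130.

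AT1G68850 also lay below wild type in both genotypes, at 622, 719.6 and 571 in wild type, 270.2, 189 and 455 in 35S:AGL15, and 249, 232 and 216 in the double mutant. The double mutant fell 2.74-fold (log2 change -1.45, SE 0.30, limma adjusted p = 0.0154), a call that ended without wild type replicate 2 or double mutant replicate 3 (log2 change -1.40 to -1.36). AT2G37130 lay below the other 6 arrays in the double mutant, at 684, 1655 and 1019 there against 3121, 2778 and 2571 in wild type and 2118, 3341 and 3709 in 35S:AGL15. Its fall was 2.68-fold (log2 change -1.42, SE 0.35, limma adjusted p = 0.0251). The call ended without any 1 wild type replicate or double mutant replicate 1 or 3 (log2 change -1.49 to -1.12).

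The 3 remaining calls were small. PRXR1 (AT4G21960), the brightest member probe set, read 11970.5, 11264 and 10449 in wild type, 7250.3, 7571 and 8126 in 35S:AGL15, and 5961, 7232 and 7658 in the double mutant. All wild type arrays lay above the other 6, and the fall in the double mutant was 1.62-fold (log2 change -0.70, SE 0.17, limma adjusted p = 0.0231). AT4G08780 fell from 775, 720.1 and 852 in wild type to 493, 475 and 462 in the double mutant, a 1.64-fold change (log2 change -0.71, SE 0.20, limma adjusted p = 0.0422). AT3G28200 was the 1 member called higher, at 2164, 2389 and 2261 in the double mutant against 1299.9, 1580.1 and 1433 in wild type and 1303, 1397 and 1458 in 35S:AGL15. The rise was 1.58-fold (log2 change 0.66, SE 0.15, limma adjusted p = 0.0218), and it became -0.07 when arrays were scaled by their spike-ins. Each of these 3 calls ended without any 1 wild type replicate. Leaving out any 1 double mutant replicate also ended those of PRXR1 (log2 change -0.77 to -0.59) and AT4G08780 (-0.77 to -0.65, and likewise without 35S:AGL15 replicate 1), and double mutant replicate 2 or 3 that of AT3G28200 (0.59 to 0.73). With arrays centred on their median, the calls of PRXR1 (-0.18), AT4G08780 (-0.19), AT2G37130 (-0.91) and AT1G68850 (-0.93) ended, and quantile normalization ended those of AT4G08780 and AT1G68850.

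**Figure D3:**
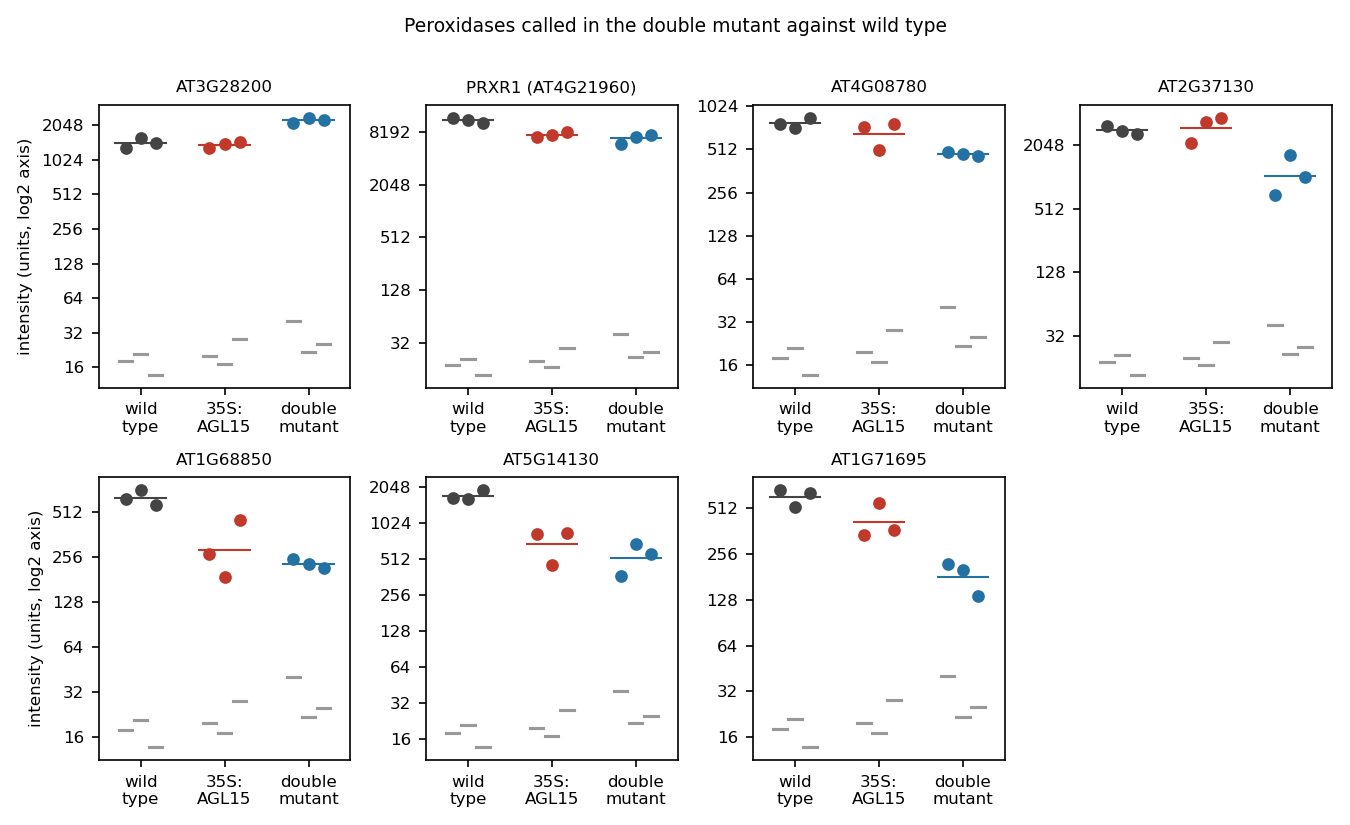
Intensity of the 7 peroxidases called between the double mutant and wild type, on log2 axes. Dots are single arrays, coloured lines geometric means of 3 arrays, and grey ticks each array's background level. AT3G28200 is higher in the double mutant (2164 to 2389), 6 are lower, and all 7 lie well above background on every array.

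PRX17 (AT2G22420), known as a direct target of AGL15 with a role in lignified tissue, separated all 3 genotypes. It read 662, 599 and 723 in wild type, 1389, 1047 and 867 in 35S:AGL15, and 502, 381 and 468 in the double mutant. No 2 genotypes overlapped, and the order was 35S:AGL15 (1101 ± 265), wild type (661 ± 61.9), double mutant (450.3 ± 62.8). Neither step from wild type passed the test, at log2 differences of 0.71 (95% interval 0.21 to 1.22, limma adjusted p = 0.139) and -0.56 (95% interval -1.06 to -0.05, limma adjusted p = 0.113). The difference between 35S:AGL15 and the double mutant did, at 2.42-fold (log2 change 1.27, SE 0.22, limma adjusted p = 0.0118), and was called by 16 of 17 alternatives.

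Between 35S:AGL15 and the double mutant 12 of 45 peroxidases (26.7%) were called, 4 higher and 8 lower in 35S:AGL15, where 15.7% of all probe sets were called (10.4% higher and 5.27% lower). This comparison shares its arrays with the other two. With quantile normalization the split was 4 higher and 7 lower, with median centring 4 and 9, and with spike-in scaling 6 and 1. The 4 higher members were PRX17, AT5G51890, AT1G71695 and AT2G37130. AT5G51890, known for lignification of xylem vessels, read 368, 322 and 237 in wild type, 430.2, 633 and 551 in 35S:AGL15, and 203, 301 and 186 in the double mutant, so that the 35S:AGL15 arrays lay above all others. It was 2.36-fold higher in 35S:AGL15 than in the double mutant (log2 change 1.24, SE 0.27, limma adjusted p = 0.022), and this call ended without double mutant replicate 1 or 3 (limma adjusted p 0.0628 to 0.0772). AT1G71695 was 2.28-fold higher (limma adjusted p = 0.0245) and AT2G37130 2.83-fold higher (limma adjusted p = 0.0267). The call of AT1G71695 ended without 35S:AGL15 replicate 1 or double mutant replicate 2 or 3 (log2 change 0.98 to 1.32), that of AT2G37130 without 35S:AGL15 replicate 2 or 3 or double mutant replicate 1 or 3 (1.19 to 1.48).

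Of the 8 that were lower in 35S:AGL15 than in the double mutant, 5 were also called lower against wild type: AT4G36430 (4.02-fold, limma adjusted p = 0.00512), AT4G33420 (3.67-fold, limma adjusted p = 0.0064), AT2G18980 (2.24-fold, limma adjusted p = 0.0102), PRX72 (log2 change -1.90, limma adjusted p = 0.00714) and AT1G44970 (log2 change -1.85, limma adjusted p = 0.0138). Among these, only AT1G44970 lost its call when 1 array was left out, namely 35S:AGL15 replicate 1 (log2 change -1.82, limma adjusted p = 0.052). PRX25 (AT2G41480), known for stem lignin, was highest in the double mutant, at 658, 697 and 994 against 438, 377 and 519 in wild type and 264, 443 and 374 in 35S:AGL15. Its double mutant arrays lay above all others, and 35S:AGL15 was 2.19-fold lower (log2 change -1.13, SE 0.26, limma adjusted p = 0.0273), except without 35S:AGL15 replicate 1 or double mutant replicate 2 or 3 (log2 change -1.20 to -0.92). AT3G28200 was 1.64-fold lower (limma adjusted p = 0.0223), a call that ended without the same 3 arrays (log2 change -0.72 to -0.67). AT1G24110 was above background on 1 of 3 double mutant and 0 of 3 35S:AGL15 arrays (log2 change -2.26, limma adjusted p = 0.0361). That call was held by 5 of 16 alternatives and ended without any 1 array other than wild type replicate 2 and 35S:AGL15 replicate 1 (log2 change -2.46 to -1.87). Raised to the background level, the change was -0.52 (limma adjusted p = 0.216), so the size of -2.26 rests on values mostly at background. Spike-in scaling ended the calls of all 8 but PRX72.

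The array batch term, which sets 35S:AGL15 replicate 3 with the 3 arrays of the double mutant, left 0 peroxidases called in both comparisons with the double mutant, where it also left only 6 and 290 of all probe sets. In that fit the term is estimated from 35S:AGL15 replicate 3 alone. At an unadjusted p under 0.05 it gave 11 (24.4%) and 18 of the 45, where 16.7% and 22.9% of all probe sets passed the same threshold. In 35S:AGL15 against wild type that fit gives the same values as leaving out 35S:AGL15 replicate 3, and it called 5 peroxidases, all lower.

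Counts of called peroxidases moved with single arrays. The 6 peroxidases of 35S:AGL15 against wild type became 3 without wild type replicate 1, wild type replicate 2 or 35S:AGL15 replicate 1, and the 838 probe sets called over the whole array (3.68%) became 192, 191 and 195 in the same fits. The 7 of the double mutant against wild type became 2 to 4 without any 1 wild type replicate or double mutant replicate 1 or 3, where the 4304 called over the array became 1829 to 3073. The 12 between 35S:AGL15 and the double mutant became 7 without double mutant replicate 3, where the 3567 over the array became 1162.

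**Figure D4:**
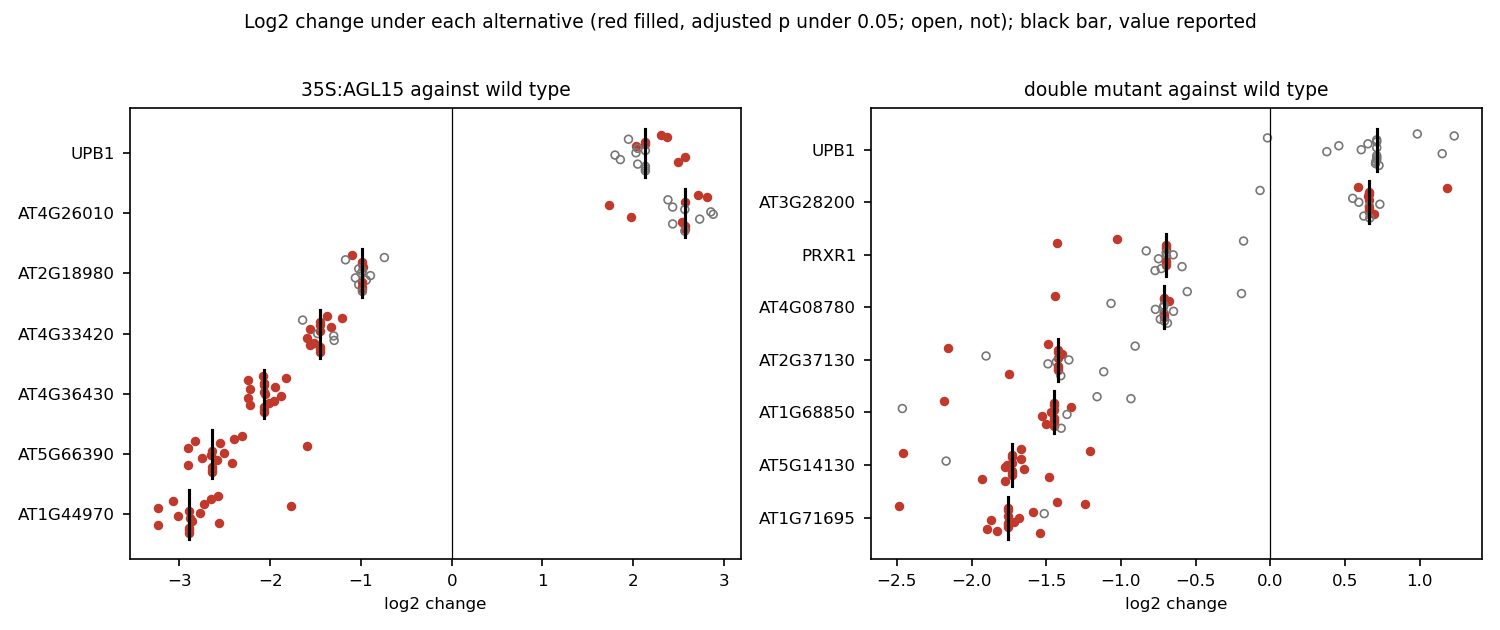
Log2 change of UPB1 and the called peroxidases in 35S:AGL15 (left) and in the double mutant (right) against wild type, under each processing alternative. Points are alternatives, filled red where the limma adjusted p was under 0.05, and the black bar is the value reported. AT4G36430, PRX72 (AT5G66390) and AT1G44970 are filled throughout, while UPB1 in 35S:AGL15 stays between 1.80 and 2.57 with a mixture of filled and open points.

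Beside UPB1, peroxidases lay on both sides of 0. In 35S:AGL15 against wild type 28 of 45 peroxidases (62.2%) had a log2 difference below 0, opposite to UPB1, where 59.6% of all probe sets were below 0. The median log2 difference was -0.26 for the peroxidases and -0.13 for all probe sets. In the double mutant against wild type, where UPB1 itself was not called, 28 of 45 (62.2%) were below 0 against 58.2% of all probe sets, with medians of -0.19 and -0.16. Between 35S:AGL15 and the double mutant 23 of 45 (51.1%) were below 0 against 45.4%, with medians of -0.06 and 0.08. These shares were near those of the array in each comparison. The direction of the medians depended on scaling: with arrays centred on their median the double mutant median was 0.33 for the peroxidases and 0.36 for all probe sets, and with spike-in scaling -0.92 and -0.89.

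By array, UPB1 minus the median log2 intensity of the 45 peroxidases is unchanged when a whole array is multiplied by a factor. It was 0.78, 0.81 and 2.55 in wild type, 3.83, 2.29 and 2.91 in 35S:AGL15, and 2.30, 2.29 and 2.54 in the double mutant. Wild type replicate 3 lay with the double mutant arrays and above 35S:AGL15 replicate 2, so wild type and 35S:AGL15 overlapped by this measure. The UPB1 change minus the median peroxidase change was 2.40 for 35S:AGL15 and 0.90 for the double mutant, both on the log2 scale and against wild type. With quantile normalization these were 2.48 and 1.04, and with values raised to the background level 2.12 and 0.57.

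**Figure D5:**
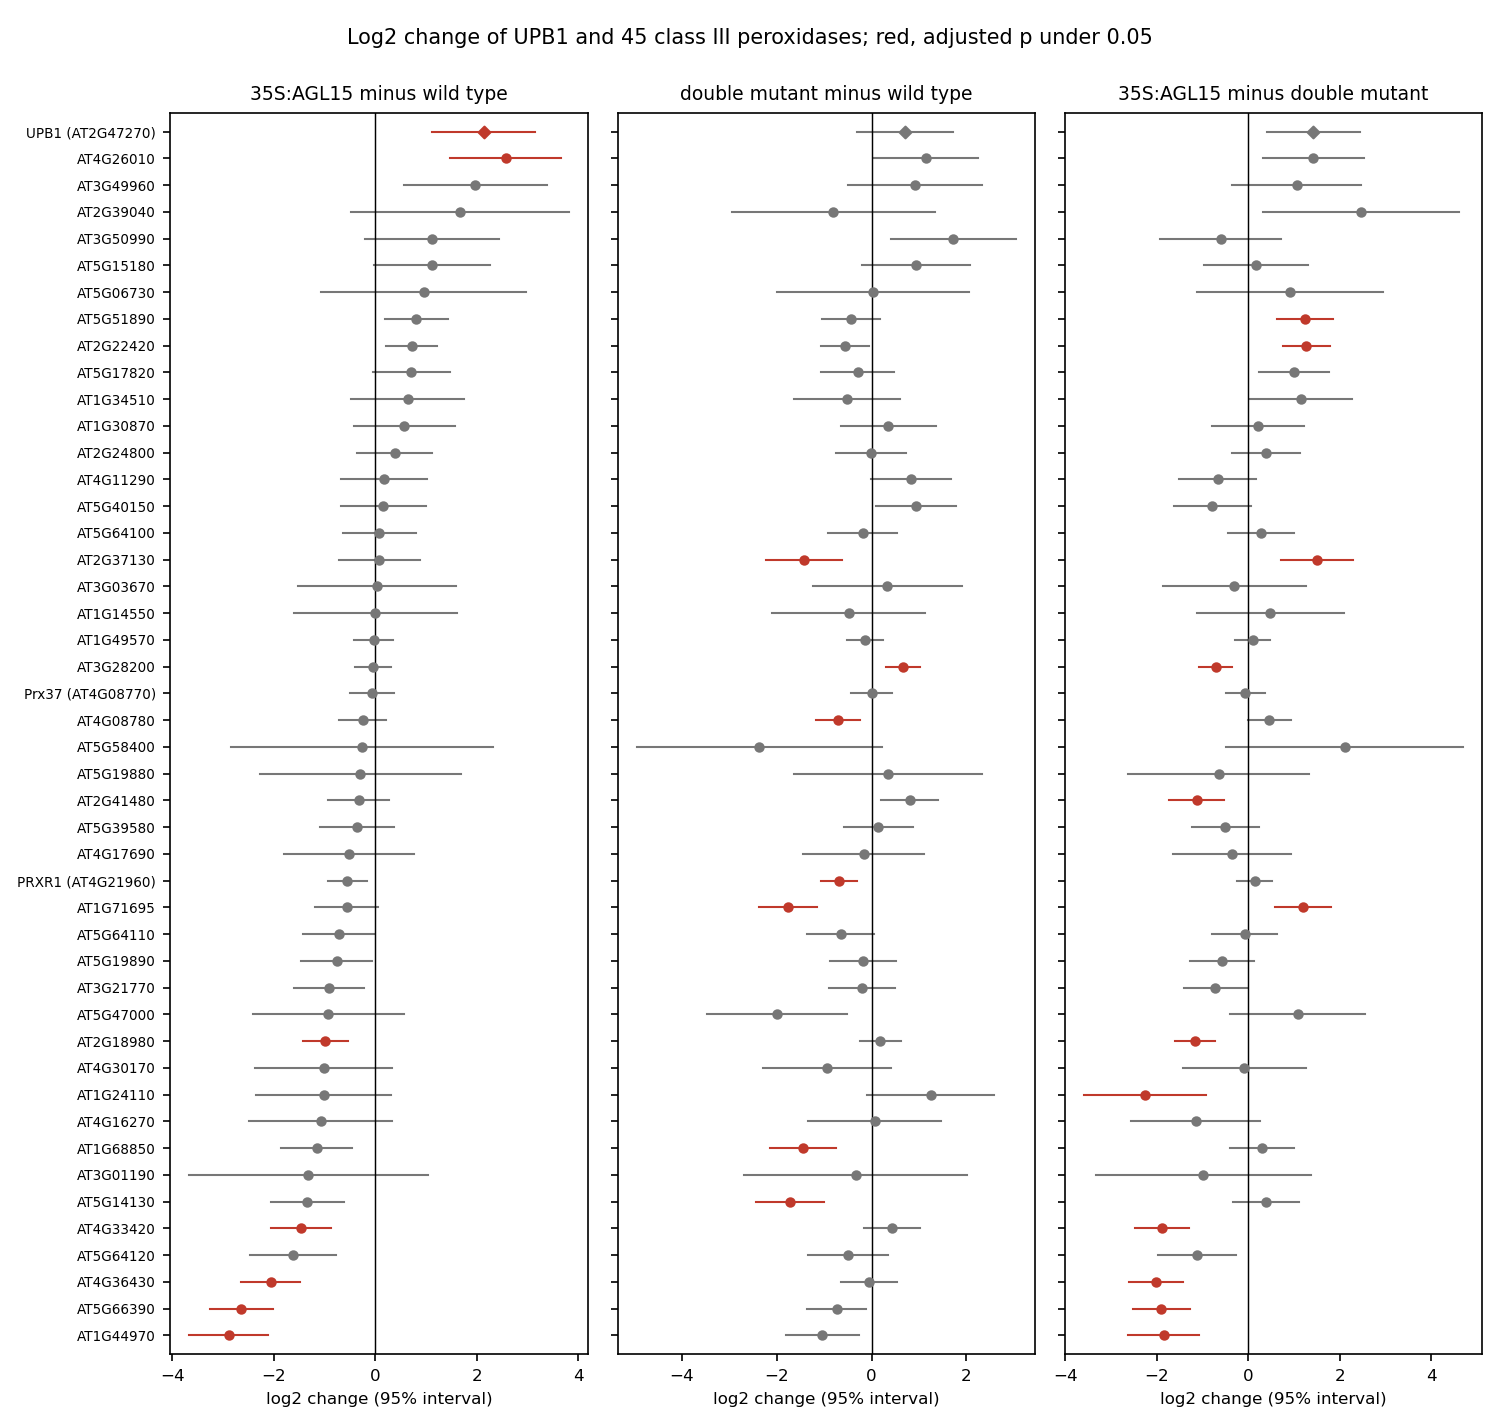
Log2 change of UPB1 (diamond) and 45 peroxidases (circles) in 3 comparisons, ordered by the 35S:AGL15 change, with 95% intervals and red for limma adjusted p under 0.05. With UPB1 higher in 35S:AGL15, called peroxidases lie on both sides of 0: AT4G26010 above it and 5 genes below it.

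The genotype with the lowest mean was 35S:AGL15 for 19 of the 45 peroxidases (42.2%), the double mutant for 17 (37.8%) and wild type for 9. Over all probe sets the first 2 shares were 30.7% and 44.3%. The groups did not overlap for 17 of 45 (37.8%) between the double mutant and wild type, against 46.1% of all probe sets, and for 20 of 45 (44.4%) between 35S:AGL15 and the double mutant, against 33.9%.

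Of the measured peroxidases, 7 lie beside another measured one in the genome. AT5G64100, AT5G64110 and PRX71 are neighbours. Between 35S:AGL15 and wild type their log2 differences were 0.08, -0.72 (95% interval -1.43 to -0.02, limma adjusted p = 0.27) and -1.62, none of them called. Of the neighbours Prx37 and AT4G08780, the second was called lower in the double mutant, whereas Prx37 had a log2 difference of -0.00 there (95% interval -0.43 to 0.43). These differences between neighbours were not tested.

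Among peroxidases listed for lignin and vascular tissue, 5 of 7 were measured. Of these, 2 were called lower in 35S:AGL15 than in wild type (PRX72 and AT4G33420) and none was called higher. Over all probe sets, 2.31% were called lower and 1.38% higher. AT5G51890 had all 35S:AGL15 arrays above wild type but did not pass (log2 difference 0.81, limma adjusted p = 0.166). In the double mutant against wild type none of the 5 was called. Between 35S:AGL15 and the double mutant 1 was higher in 35S:AGL15 (AT5G51890) and 3 were lower (PRX72, AT4G33420 and PRX25), where 10.4% of all probe sets were called higher and 5.27% lower. PRX17, which has a role in lignified tissue but was kept in another list, was also called higher there (log2 change 1.27, limma adjusted p = 0.0118). Against wild type its 35S:AGL15 arrays lay higher without passing (log2 difference 0.71, limma adjusted p = 0.139). Of the lignin pathway, 2 of 20 listed genes were measured. HCT, a hydroxycinnamoyl transferase of monolignol synthesis, read 1507, 1112 and 855 in wild type, 297, 705 and 413 in 35S:AGL15, and 1107, 1639 and 1694 in the double mutant. The 35S:AGL15 arrays lay below the rest, 3.29-fold under the double mutant (limma adjusted p = 0.0203) and 2.55-fold under wild type (limma adjusted p = 0.0939). CCR2, a cinnamoyl-CoA reductase, was called in no comparison.

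On the hydrogen peroxide supply side, 3 of 10 NADPH oxidases were measured. RBOHE, a respiratory burst oxidase, read 271, 327 and 261 in wild type, 236, 222 and 169 in 35S:AGL15, and 71, 135 and 93.7 in the double mutant. It fell 2.96-fold in the double mutant (log2 change -1.56, SE 0.26, limma adjusted p = 0.00738), the same genotype order as AT1G71695. RBOHG and RBOHI were near background and not called. Of catalases and ascorbate peroxidases 2 of 11 were measured, the chloroplast enzymes SAPX and TAPX, and neither was called. None of the 7 listed superoxide dismutases was measured.

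Markers of other cell types were measured in part. Of 13 embryo markers 3 were measured: the oleosin OLEO3 rose 6.21-fold (limma adjusted p = 0.0127) and the vicilin-like PAP85 4.48-fold (limma adjusted p = 0.0382) in 35S:AGL15, and BBM, an AP2-type regulator of embryogenesis, was above background on all 9 arrays and not called. Summed per array, the 3 read 659 to 1005 for wild type, 1986 to 3200 for 35S:AGL15 and 961 to 1604 for the double mutant. Of 5 shoot meristem markers 3 were measured and none was called. CLV3, which defines the stem cells, was above background on no array and UFO on 1 of 9, while LAS was above it on all 9 (log2 difference of 35S:AGL15 from wild type -0.98, limma adjusted p = 0.151). Their sum was 119 to 195 for wild type, 65.8 to 96.7 for 35S:AGL15 and 114 to 133 for the double mutant. The 3 measured leaf markers of 5 summed to 3892 to 5428, 2717 to 3907 and 4232 to 4952. Among them PRK fell 2.20-fold in the double mutant against wild type (limma adjusted p = 0.00872). Between 35S:AGL15 and the double mutant, leaf markers were called in both directions. PRK was 1.81-fold higher in 35S:AGL15 (limma adjusted p = 0.0292) and LHCB4.2 was 2.08-fold lower (limma adjusted p = 0.0491). In this comparison the 3567 probe sets called over the array became 290 with the array batch term. Calls of genes other than UPB1 and the measured peroxidases were not followed under the alternatives. None of the 8 endodermis and 6 xylem markers was measured. Each sum is weighted to its brightest probe set, so it is not a level of the cell type. Group means reached 1931 for OLEO3 in 35S:AGL15, and 141 for LAS and 3236 for RCA in wild type. The part of these cell types in the peroxidase values was not tested.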

How the data were processed

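The authors deposited 1 linear intensity per probe set and array. For the summary method and software, the sources used here say nothing. After trimming 2% of probe sets from each end, every deposited array had a mean intensity of 500.04 to 500.06, so the arrays were scaled to a common level. Per the labels, biotinylated cRNA was prepared by the standard Affymetrix protocol. The 22746 probe sets other than controls were converted to log2 without an offset and fitted with limma 3.58.1 in R 4.3.3 on all 9 arrays, with genotype as the only term. The 3 contrasts were tested two-sided with Benjamini-Hochberg adjustment. The p-values rest on a spread between arrays of the same genotype, estimated from all 9 arrays and shared by the 3 genotypes. Arrays outside a comparison therefore affect its p-values but not its log2 changes. The 3 arrays per genotype limit the precision. Genes were named through the platform annotation: 13513 probe sets had 1 gene, 503 several and 8730 none. A fold is given where at least 2 of 3 arrays of both groups were above background. The fit was also run on simulated data, with independent noise for each probe set and array and effects added to some probe sets. Those data held no array-wide shift and no background level, so the run does not bear on scaling or background.

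Named genes were UPB1, its 3 known root targets, PRX17, the 5 members brightest in wild type, every called member, and called genes of the other lists. AT3G49960 and AT1G30870, AT5G64110, and genes of the other lists that were not called were added after their values were seen. The members and lists were chosen with earlier results of these data known. Common scaling hides a global change in RNA per culture. Alternatives were quantile normalization, centring on the median, spike-in scaling, leaving out the dimmest 40% of probe sets, raising values to background, an offset of 32, an array batch term, a replicate block and leaving out each array.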

Additional observations from a re-analysis of the deposited data

Results flagged for a closer look

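Peroxidase loci that share a probe set with another gene were left out of the comparisons, but their signal was above background on all 9 arrays. The probe set shared by AT4G37530 and AT4G37520 read at least 179.8. It read 736, 511 and 718 in wild type, 199.8, 213 and 179.8 in 35S:AGL15, and 259.8, 562 and 492 in the double mutant, and was called lower in 35S:AGL15 than in wild type (3.28-fold, limma adjusted p = 0.0248) and than in the double mutant (2.11-fold, limma adjusted p = 0.0498). AT4G37530 is not among the 59 loci.

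The probe set shared by AT2G38390 and AT2G38380 had a lowest value of 1435. Wild type arrays read 4700.2, 5432 and 4019.9, above the 1435, 1503 and 2917 of 35S:AGL15 and the 1901, 2550.2 and 2406 of the double mutant. It was called lower in the double mutant (2.06-fold, limma adjusted p = 0.044), and in 35S:AGL15 the log2 difference of -1.34 did not pass (limma adjusted p = 0.0516).

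The probe set shared by AT2G18150 and AT2G18140 had a lowest value of 256. It was called in no comparison, with log2 differences from wild type of -1.02 in 35S:AGL15 (limma adjusted p = 0.0667) and -0.57 in the double mutant (limma adjusted p = 0.141). Which gene of each pair gave the signal cannot be told from these values.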

How the results depend on the processing

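Under each alternative 1 choice was changed. Values were followed for the called peroxidases and the 3 known UPB1 targets, in all 3 comparisons. Of these values, 822 kept their direction and side of the threshold, which includes values not called in either fit. Another 108 lost a call, 43 gained one and 29 changed sign. Single calls were held by 5 to 17 alternatives. In 35S:AGL15 against wild type, the 838 probe sets and 6 peroxidases called became 239 and 3 with spike-in scaling, 1417 and 10 with values raised to background, and 1525 and 10 with an offset of 32. The UPB1 change of 2.13 was no longer called with spike-in scaling (1.95) or the array batch term (2.05). In the double mutant against wild type, the 4304 probe sets and 7 peroxidases became 6466 and 11 with spike-in scaling, 11 peroxidases when raised to background, and 6 and 0 with the batch term, and the UPB1 difference turned to -0.019 with spike-in scaling. Between 35S:AGL15 and the double mutant, the 3567 and 12 became 2314 and 7 with spike-in scaling and 290 and 0 with the batch term. There UPB1 passed the threshold with spike-in scaling (1.97), without the dimmest 40% of probe sets (1.42), raised to background (1.42) and with the offset (1.37). The causes were not tested.

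Probe sets called higher and lower also shifted with scaling. From 313 and 525 in 35S:AGL15 against wild type they became 418 and 397 (quantile), 404 and 294 (median) and 66 and 173 (spike-in). From 886 and 3418 in the double mutant they became 1633 and 2101, 4082 and 1576, and 76 and 6390. From 2369 and 1198 between 35S:AGL15 and the double mutant they became 1672 and 1526, 1210 and 2528, and 2172 and 142. The median log2 difference of all probe sets from wild type was 0.12 in 35S:AGL15 with median centring and -0.31 with spike-in scaling.

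Same-numbered replicates did not pair: 3 of 9 same-number pairs had deviations correlated above 0.1 (-0.49 to 0.36), against up to 0.68 for different numbers. With the replicate number as a block, 320 probe sets passed for 35S:AGL15 against wild type and 2066 between 35S:AGL15 and the double mutant, and the UPB1 change of 2.13 had a limma adjusted p of 0.0612. The block also ended the calls of AT4G26010 and AT2G18980 in 35S:AGL15 against wild type, PRXR1 and AT4G08780 in the double mutant, and AT1G71695 and AT3G28200 between 35S:AGL15 and the double mutant. Leaving out 1 array gave 191 to 1867, 1829 to 5673 and 1032 to 4192 probe sets, and 3 to 8, 2 to 10 and 7 to 13 peroxidases, in the 3 comparisons in that order. UPB1 ranged from 1.80 to 2.57, 0.38 to 1.15 and 1.15 to 1.78.

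Of the values that changed sign, only AT3G28200 in the double mutant had been called. In 35S:AGL15 against wild type these were AT2G37130 (-0.017 quantile, -0.11 spike-in, -0.081 batch term), AT4G11290 (-0.017 spike-in), AT3G28200 (0.19 median), AT1G24110 (0.29) and AT4G16270 (0.048) raised to background. In the double mutant against wild type they were AT5G17820 (0.22), AT4G36430 (0.46) and AT5G51890 (0.084) with median centring, AT2G18980 (-0.068 quantile, -0.55 spike-in), AT3G28200 (-0.069), AT4G33420 (-0.31) and AT4G16270 (-0.67) with spike-in scaling, and AT4G16270 with the batch term (-1.67). Between 35S:AGL15 and the double mutant they were AT4G16270 (0.013, batch term) and PRXR1 (AT4G21960, -0.13, median). Leaving out 1 array took AT2G37130 to between -0.081 and 0.32, AT4G11290 -0.22 and 0.45, AT3G28200 -0.12 and 0.021, all against wild type in 35S:AGL15, AT4G36430 to -0.24 and 0.13 and AT4G16270 to -0.34 and 0.60 in the double mutant, and AT1G68850 to -0.040 and 0.60 between 35S:AGL15 and the double mutant. Signal over background limits the 19 peroxidases not above it on all arrays.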
